A study of Mus musculus with 48 samples.

Results

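The 100 probe sets described here, from 95 genes, had the 24 h swing that fitted best among well-expressed transcripts outside the clock that peaked late in the first day, between hours 32 and 44 after forskolin. They were chosen by their own readout. The log2 intensity of each probe set over 48 hourly arrays was fitted with a linear trend and a 24 h cosine, and 16290 probe sets with 1 gene symbol, a mean log2 intensity of 10 or more and no clock gene of the Per, Cry, Nr1d, Dbp, Tef, Hlf, Npas2 or Arntl families could enter. Of these, 7825 had their fitted peak between hours 32 and 44, and the 100 in which the cosine took the highest share of the detrended variance became the members. The whole array held 45037 probe sets besides 64 controls. Because amplitude, peak hour and share chose the members, these values are given as a description, with no test. The last members in, Supt20 and Rnf138, had shares of 28.7% and 28.6%, and the first left out, Ubfd1 and Ap3m1, both had 28.4%. The clock rule also kept out a probe set of Arntl, the clock activator known as Bmal1, with a peak at hour 37.3 and an amplitude of 0.16 log2, which would otherwise have ranked in.

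The circadian clock of a fibroblast is a feedback loop in which the activators Clock and Bmal1 drive Per and Cry genes, whose proteins then repress them, and clock factors also reach many genes outside the loop. Proteins that a fibroblast secretes, collagens above all, are folded in the endoplasmic reticulum (ER) by chaperones such as BiP (Hspa5), by disulfide isomerases and by helpers of both. When unfolded protein builds up, the sensors Atf6, Ire1 and Perk raise the genes of these chaperones together, an arrangement called the unfolded protein response.

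All arrays came from 1 condition. NIH3T3 cells, an established mouse embryo fibroblast line, were grown to confluence in serum-containing medium and given 10 µM forskolin, which raises cyclic AMP and sets the cells' clocks to a common phase. RNA was taken every hour from hour 20 to hour 67 and hybridised to an Affymetrix mouse genome expression array, with 1 array per hour. The design held no unstimulated cells, so hours can only be compared with each other, and where p-values are given they cover the spread between hours, which are not independent cultures of 1 time point. All 10 fibroblast markers read had a mean log2 intensity of 16.4 or more, while 3 of the 32 markers of 6 other cell types reached 10, Fabp4 of adipocytes (15.8), Snap25 of neurons (15.1) and Cd68 of macrophages (10.4).

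Array quality bears on these small swings. In 10 arrays, those of hours 20, 22, 24, 36, 38, 40, 43, 45, 46 and 67, the β-actin signal at the 3′ end lay over 1.4 log2 above that at the 5′ end (array median 1.13, maximum 2.42). This difference is used as a measure of how far the RNA or the labelling reached towards the 5′ end. A 24 h cosine fitted to the difference itself peaked at hour 42.4 ± 1.87 (SE), inside the hours that chose the members. Its amplitude was 0.14 ± 0.065 log2 (SE), and it took a share of only 0.098 of the detrended variance. The arrays of hours 52 to 55 also stood apart, with BioB spike-in values 0.897 log2 above the mean of the others. Several results below are therefore set beside their values without these arrays.

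The swings were small. Amplitudes, from mean to peak, ran from 0.026 to 0.45 log2 with a median of 0.12, and the fitted peak-to-trough ratio had a median of 1.19. It passed 1.5 in 2 members, Sdf2l1 (1.72) and Gm3715 (1.86), whereas 89 members passed 1.1. The standard error of the amplitude had a median of 0.026 log2. The share of detrended variance taken by the cosine ran from 28.6% to 63.9%, with a median of 32.2%, beside a median of 6.03% over all 16290 probe sets that could enter.

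The peaks were not spread evenly. Before hour 36 lay 18 members, between hours 36 and 42 lay 32, and in the last 2 hours of the window, from hour 42 to 44, lay 50. Of the 7825 probe sets from which the members were ranked, 28.0% peaked in those last 2 hours. When the period was left free between 18 and 30 h, 39 members fitted best at 23 to 25 h, 33 at shorter and 28 at longer periods. The plot of peak hour against amplitude shows these 3 groups, and its colours show that the early and late members related in opposite ways to the β-actin difference.

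**Figure D1:**
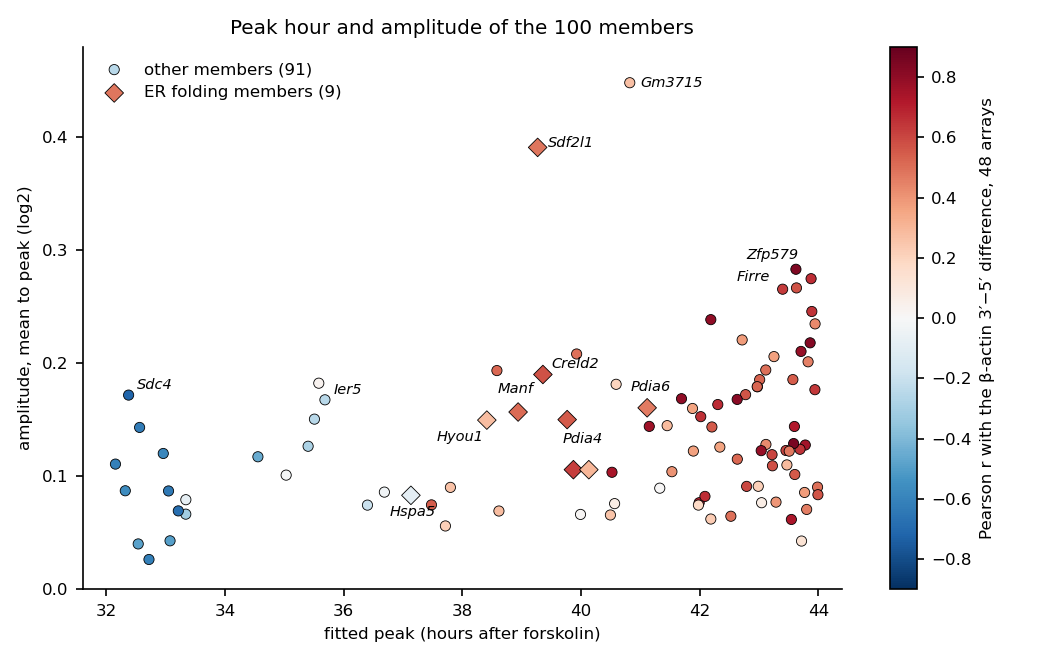
Fitted peak hour (hours after forskolin) against amplitude (log2, mean to peak) of the 100 members, coloured by the Pearson correlation (r) of each member with the β-actin 3′ minus 5′ difference over 48 arrays. A linear trend over the hours was first taken out of both, here and wherever this r is given. Diamonds are the 9 ER folding members. The 18 members that peaked before hour 36 are blue or pale (median r -0.49), 45 of the 50 that peaked at hours 42 to 44 have r above 0.3, and Sdf2l1 and Gm3715 stand above the rest in amplitude.

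ER chaperones and their partners made up the leading named group. Of the 32 genes on the ER folding and quality control list, 9 were members, namely Sdf2l1, Manf, Pdia6, Hyou1, Creld2, Hspa5, Hsp90b1, Pdia4 and Fkbp2, all with fitted peaks between hours 37.1 and 41.1. Their amplitudes had a median of 0.15 log2, and their median profile was low at hours 25 to 31 and again at hours 47 to 57. No other list had more than 3 member genes, and 22 of the 95 member genes were on any of the 28 pathway lists.

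Sdf2l1, a partner of DnaJ proteins in the ER, had the largest swing of the 9. Its log2 intensity was lowest at hour 27 (12.25), had a median of 13.20 and was highest at hour 20 (13.87). The mean of 6 arrays was 12.65 ± 0.27 (SD) for hours 26 to 31, 13.45 ± 0.21 for hours 38 to 43, 13.05 ± 0.26 for hours 50 to 55 and 13.30 ± 0.19 for hours 62 to 67. The first trough was thus deeper than the second, and the fitted amplitude was 0.77 log2 on the first day (hours 20 to 43) and 0.32 on the second (hours 44 to 67). The fit of a single day held its own linear trend, and the fit over both days gave 0.39.

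Hspa5, or BiP, the main Hsp70 chaperone of the ER, swung less, and its r with the β-actin difference was -0.086 over 48 arrays. That was the lowest r of the 9, which ran up to 0.62 with a median of 0.48 and lay above 0.3 in 6. It ran from 17.46 at hour 49 to 17.81 at hour 62, with a median of 17.61 and an amplitude of 0.083 ± 0.017 log2 (SE). Its highest arrays lay at hours 60 to 63, none of which is among the 10 of high β-actin difference. Hyou1, an Hsp110-type partner of BiP, ran from 14.37 at hour 46 to 14.95 at hour 36 and peaked at hour 38.4 ± 0.65.

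Manf, a secreted protein that also binds BiP in the ER, ran from 16.02 at hour 26 to 16.67 at hour 36, with a median of 16.33. Creld2, an ER-resident protein known to be induced by ER stress, ran from 14.97 at hour 26 to 15.85 at hour 36 (median 15.33). Both genes were thus lowest in the same array and highest in the same array, and hour 36 is the array with the highest β-actin difference. Over the 9 genes, 4 had their highest array at hour 36 and 2 at hour 20, and 8 had it on an array of high β-actin difference.

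The disulfide isomerases Pdia6 and Pdia4, which form and rearrange disulfide bonds, had amplitudes of 0.16 ± 0.027 and 0.15 ± 0.031 log2. Pdia6 peaked last of the 9, at hour 41.1 ± 0.66. Hsp90b1, the Hsp90 of the ER, and Fkbp2, an ER prolyl isomerase, had equal amplitudes to 2 decimals, 0.11 log2, and peaked at hours 39.9 ± 0.77 and 40.1 ± 0.80. The panels of these genes by hour show the arrays of high β-actin difference apart from the others.

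**Figure D2:**
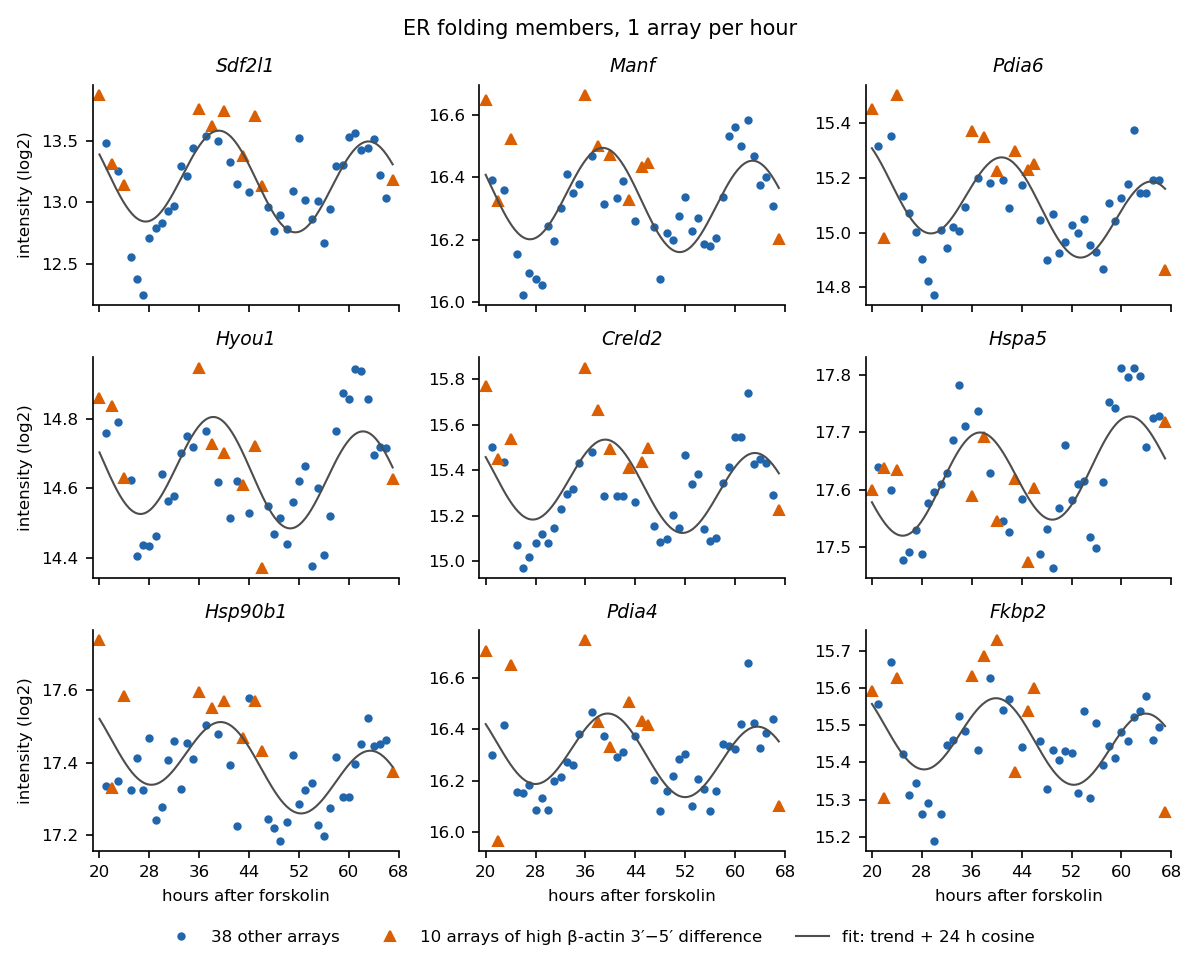
Log2 intensity of the 9 ER folding members against hours after forskolin, 1 array per point; triangles are the 10 arrays of high β-actin difference, circles the other 38, and the line is the fitted trend with its 24 h cosine. In Sdf2l1, Manf and Creld2 the circles alone fall to hours 26 to 29 and climb again towards hours 60 to 63, and in Hspa5 the highest points are circles at hours 60 to 63.

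Left without the 10 arrays, the 9 ER genes still had amplitudes of 0.082 to 0.33 log2 and peaks between hours 37.0 and 41.5. When the rule was applied to the other 38 arrays, 8 of them, all but Hsp90b1, ranked again among the 100. The limma test of the 24 h cosine over those 38 arrays passed 5 of the 9. Hyou1, Creld2, Hsp90b1 and Fkbp2 did not pass (adjusted p from 0.0588 to 0.221). The choice rested on this 24 h term, so these p-values are a description. Read separately, the first day put their peaks between hours 36.8 and 40.8 and the second day between hours 37.7 and 40.2 of the same cycle. The lower amplitude was on the second day in 8 of the 9, as in 63 of all 100 members. Both days were read with all arrays. Of the 10 arrays, 3 lay at hours 20 to 31, 4 at hours 32 to 43, 2 at hours 44 to 55 and 1 at hours 56 to 67. The days thus differed in array quality, and its part in the day amplitudes was not tested. A second probe set of mean log2 10 or more existed for Hyou1, Hspa5 and Hsp90b1, and all 3 peaked inside the window, at hours 40.4, 37.7 and 38.3. These values come from the same arrays and are a description.

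What was left after the fit also moved together. Once trend, cosine and a term for hours 52 to 55 were taken out, the 36 pairs of ER folding members had a median Pearson r of 0.43 over 48 arrays, 0.40 with the β-actin difference as a further term and 0.47 without the 10 arrays. The 1225 pairs of members peaking at hours 42 to 44 had medians of 0.40, 0.22 and 0.28 in the same order. The 253 pairs of the other members peaking at hours 36 to 42 had medians of 0.10, 0.057 and 0.092. All pairs share the same arrays, so any disturbance of an array enters every one of them.

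The rest of the folding list had smaller swings. Among the 23 listed genes that were no members, read by their brightest probe set, 18 had a fitted peak between hours 32 and 44 (78.3%), and 16 did without the 10 arrays (69.6%), beside 51.2% and 40.9% of the 9451 genes whose brightest probe set had a mean log2 of 10 or more. Their median amplitude was 0.040 log2. Such a lean was not particular to folding genes, since 27 of 29 mitosis genes, 22 of 28 heat shock chaperone genes and 15 of 20 genes of ER-associated degradation also had their fitted peak in the window, the last falling to 11 without the 10 arrays. The limma test of the 24 h cosine, adjusted by the Benjamini-Hochberg method over all probe sets, was passed by 7 of the 32 listed genes with a peak in the window and by 0 at other hours, beside 0.192% and 0.209% of 18193 genes. All 7 were member probe sets, so this count repeats the choice and nothing is read from it. At an unadjusted p under 0.05 stood 5 of the 23 genes outside the members, all with a peak in the window, beside 5.08% of the 18193 genes with a peak in the window and 5.61% with one at other hours. They were Pdia3, a disulfide isomerase for glycoproteins, Dnajb9 and Cnpy2, both ER-resident proteins, Uggt1, the sensor of glycoprotein folding, and Xbp1, the factor made by Ire1 splicing. All 32 listed genes had a mean log2 of 10 or more, whereas 9451 of the 18193 genes did, so the limma shares are not matched in level.

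The neighbouring steps of the secretory pathway held few members. The list for ER entry and glycosylation gave 1, Sec11c, a catalytic subunit of the signal peptidase, with its peak at hour 37.8 and an amplitude of 0.090 log2, among 36 genes measured. The list for vesicle transport gave 1, Kdelr2, a receptor that returns escaped ER proteins from the Golgi, with its peak earlier, at hour 32.6. The member probe set of Kdelr2 had an amplitude of 0.14 log2, and a brighter second probe set had 0.0096 ± 0.0089. The list of ER-associated degradation gave 0 of 20, and that of the integrated stress response, the Perk branch, gave 0 of 23. By limma, 0 genes of these 4 lists passed the 24 h test with a peak in the window, and 1 passed at other hours, Sar1b, a small GTPase of COPII coats. At an unadjusted p under 0.05 stood, in the same order of lists, 6, 3, 2 and 3 genes with a peak in the window and 4, 3, 1 and 2 at other hours. Serpinh1, the collagen chaperone Hsp47, was the only member on the extracellular matrix list (51 genes measured), and it peaked at hour 40.0 with an amplitude of 0.066 log2.

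The promoters of these genes were read because the members moved together and because a DNA element for the unfolded protein response is known, the ER stress element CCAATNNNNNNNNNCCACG, whose left and right parts are known to bind NF-Y and Atf6. Sequences are RefSeq's for GRCm38.p6, 250 bases before to 50 after each start site, and both strands were searched for exact letters. Of the 9 ER folding members 7 had an entry, Manf and Hyou1 being without, and 4 of the 7 held the element. None of the 74 other member genes with an entry did, and neither did the 73 genes of the 100 best-fitting probe sets that peaked at hours 20 to 32. Of 27025 genes with a promoter, 37 held it (0.137%), as did 13 of the 7727 that could enter (0.168%). The listed folding genes outside the members were not counted apart, so these counts do not separate peak hour from gene class. The 4 promoters follow with the element in capitals, together with that of Sdf2l1, shown because it had the largest swing of the 9 and had no match to these letters. All are written in the direction of transcription.
Hspa5 (chr2:34771840-34772139, plus strand): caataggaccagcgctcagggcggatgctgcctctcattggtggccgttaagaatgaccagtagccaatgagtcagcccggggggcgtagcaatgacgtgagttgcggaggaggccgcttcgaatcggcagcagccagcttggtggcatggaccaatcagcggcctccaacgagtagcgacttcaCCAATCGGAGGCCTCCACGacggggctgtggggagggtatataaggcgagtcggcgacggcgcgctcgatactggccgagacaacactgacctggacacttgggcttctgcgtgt
Hsp90b1 (chr10:86705395-86705694, minus strand): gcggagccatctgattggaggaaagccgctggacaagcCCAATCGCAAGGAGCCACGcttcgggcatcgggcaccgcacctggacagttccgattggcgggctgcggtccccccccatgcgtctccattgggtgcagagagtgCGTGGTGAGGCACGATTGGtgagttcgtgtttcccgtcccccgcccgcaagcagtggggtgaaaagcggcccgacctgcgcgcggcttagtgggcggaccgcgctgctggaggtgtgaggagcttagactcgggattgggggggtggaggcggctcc
Pdia6 (chr12:17266339-17266638, plus strand): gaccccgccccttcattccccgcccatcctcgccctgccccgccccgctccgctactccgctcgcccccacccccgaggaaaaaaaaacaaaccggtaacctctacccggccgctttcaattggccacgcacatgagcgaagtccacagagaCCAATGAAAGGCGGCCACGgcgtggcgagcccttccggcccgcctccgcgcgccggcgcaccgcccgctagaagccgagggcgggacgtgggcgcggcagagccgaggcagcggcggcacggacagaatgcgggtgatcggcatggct
Creld2 (chr15:88819396-88819695, plus strand): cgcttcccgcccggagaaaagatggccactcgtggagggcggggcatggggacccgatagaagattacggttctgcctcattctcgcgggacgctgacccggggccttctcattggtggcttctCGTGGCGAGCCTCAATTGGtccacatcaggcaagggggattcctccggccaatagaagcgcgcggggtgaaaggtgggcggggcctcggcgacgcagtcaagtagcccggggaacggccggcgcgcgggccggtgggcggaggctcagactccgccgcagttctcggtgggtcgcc
Sdf2l1 (chr16:17132334-17132633, minus strand): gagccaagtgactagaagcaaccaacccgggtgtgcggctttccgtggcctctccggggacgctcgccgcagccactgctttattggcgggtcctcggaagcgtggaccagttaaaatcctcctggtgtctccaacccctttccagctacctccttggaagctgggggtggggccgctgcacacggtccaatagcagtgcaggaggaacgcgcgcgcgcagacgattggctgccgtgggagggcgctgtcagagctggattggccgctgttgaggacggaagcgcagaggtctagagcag

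Hsp90b1 held the element in both orientations, starting 212 and 107 bases before the start site. In Hspa5 it started 65 bases, in Pdia6 98 bases and in Creld2, in reverse, 126 bases before. The shorter CCAAT, which is part of the element, stood in 7 of the 7 promoters, beside 42.0% of all member genes and 41.1% of all genes. Nfya, which codes for a subunit of the CCAAT-binding factor NF-Y, was itself a member (peak hour 40.5, amplitude 0.10 ± 0.024 log2), a gene singled out after its values were seen.

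Clock-related letters were not frequent in the members. The E-box CACGTG stood in 5 of 81 member genes with an entry (6.17%), in 13 of 73 genes of the opposite phase (17.8%), in 12.3% of the genes that could enter and in 8.09% of all. The D-box TTATGTAA stood in 1 and the ROR element TAGGTCA in 0 of 81, beside 1.11% and 2.97% of all genes. The cyclic AMP response element TGACGTCA stood in 1.23% of member genes, 9.59% of those of the opposite phase, 3.7% of those that could enter and 2.03% of all. For its core TGACG, contained in it, the shares were 39.5%, 42.5%, 37.8% and 23.0% in the same order. The UPR element TGACGTGG stood in 1 of the 81 member genes (1.23%) and in 0 of the 7 ER folding members with an entry. It stood in 1.14% of the genes that could enter and in 0.714% of all. For the heat shock element the shares were 1.23% of member genes, 0.582% of those that could enter and 0.662% of all. The antioxidant element TGACNNNGC stood in 16 of the 81, beside 1315 of the 7727 genes that could enter. A match says only that these letters stand in the window.

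Members peaking before hour 36 were a mixed group of 18. Ier5, an immediate early gene product, had the highest share of all members, 63.9%. Its log2 intensity was lowest at hour 26 (13.22), had a median of 13.61 and was highest at hour 60 (13.89), and the 6 h means moved from 13.32 ± 0.064 (SD) for hours 20 to 25 to 13.69 ± 0.088 for hours 32 to 37, 13.43 ± 0.097 for hours 44 to 49 and 13.79 ± 0.095 for hours 56 to 61. High and low hours thus came back a day apart. Its amplitude was 0.17 ± 0.019 log2, and 0.16 without the 10 arrays, and a brighter second probe set peaked at hour 36.5 with 0.061 ± 0.022. Crem, a member of the CREB family whose short form ICER is induced by cyclic AMP, peaked at hour 33.0 with 0.12 ± 0.026, and a second probe set of it gave hour 43.1 with 0.061 ± 0.050.

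Membrane traffic and protein turnover supplied further early members. Vps29, a subunit of the retromer, Rab6a, a Golgi GTPase, Atp6v1b2, a subunit of the proton pump that acidifies lysosomes, and Psma7, a proteasome subunit, peaked between hours 33.1 and 33.3 with 0.043 to 0.079 log2. Mocs2, a subunit of molybdopterin synthase, peaked at hour 32.5 with 0.040 ± 0.0064. Naca, which meets nascent chains at the ribosome, had the smallest amplitude of the 100, 0.026 log2.

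These early members ran against the β-actin difference. Their r with it had a median of -0.49 over 48 arrays, and 15 of the 18 had their lowest array among the 10. Without the 10 arrays 6 of the 18 ranked again, Ier5, Mocs2, Bzw1, Crem, Atp6v1b2 and Vps29. Their median amplitude went from 0.11 to 0.066 log2. The part of RNA quality in these 18 members was not tested.

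Members peaking at hours 42 to 44, 50 probe sets of 45 genes, held few genes of any list. Ifi27, an interferon-induced protein, had the second highest share of all members, 53.1%. It ran from 16.03 at hour 31 to 16.63 at hour 46, with a median of 16.38 and an amplitude of 0.12 ± 0.017 log2. A second Ifi27 probe set did not share the pattern (0.028 ± 0.032, peak hour 27.5). Cdc7, the kinase that fires replication origins (0.16 ± 0.031), Cep95, a centrosomal protein (0.17 ± 0.027), and Spice1, a spindle and centriole protein (0.19 ± 0.035 and 0.24 ± 0.051 in 2 probe sets), were also among the 50. A second Cdc7 probe set had 0.046 ± 0.10 and its peak at hour 29.9. The lists for mitosis (29 genes measured) and DNA replication (36 genes measured) held 0 member genes. Fancg, of the Fanconi anaemia repair complex, and Recql, a DNA helicase, peaked before hour 42, at hours 41.9 and 41.5.

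RNA-binding and RNA-processing proteins recurred among the later members, a grouping made after the values were seen. Srsf6 and Srsf2, splicing regulators of the SR family, peaked at hours 43.3 and 43.0 with 0.077 and 0.076 log2, and Prpf31, of the U4/U6 particle, at hour 41.2 with 0.14. Dazap1, an RNA-binding protein, peaked at hour 43.6, and Zfc3h1, of a nuclear RNA decay complex, at hour 44.0. The RNA splicing list of 62 measured genes gave Srsf6, Srsf2 and Prpf31 as members. By brightest probe set, limma passed 0 of its genes with a peak in the window, and at an unadjusted p under 0.05 stood 8 with a peak there and 6 at other hours. Of the 5 other Srsf6 and Srsf2 probe sets of mean log2 10 or more, none peaked in the window, and the 1 of Prpf31 peaked at hour 24.5. Eif4a2, an RNA helicase of translation initiation, peaked at hour 42.5 with 0.064 ± 0.013.

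Long noncoding RNAs were 5 of the 95 member genes (5.26%), Meg3, Firre, Neat1, Gm20045 and A330023F24Rik, beside 1.69% of the 9440 genes that could enter, and all 5 peaked at hours 42 to 44. The 100 best-fitting probe sets that peaked at hours 20 to 32 held 6 such genes, Meg3 and Firre again among them. Firre, an X-linked RNA of nuclear organisation, and Meg3, an imprinted RNA, had 2 member probe sets each. The Firre probe sets had amplitudes of 0.27 ± 0.056 and 0.27 ± 0.058, and both were lowest at hour 32. The highest array was hour 67 for one and hour 36 for the other. Meg3 was highest at hour 20 in both probe sets and lowest at hour 51 in both. Other probe sets of these genes gave other hours. Of 8 further Meg3 probe sets of mean log2 10 or more, 6 peaked outside the window, as did 1 of 2 for Firre, at hour 20.4.

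Also in the group, Abcc5, an efflux pump of the ABC family, had 2 member probe sets with amplitudes of 0.19 ± 0.034 and 0.18 ± 0.040, and Col27a1, a fibrillar collagen, had 2 with 0.18 ± 0.034 and 0.25 ± 0.054. Mtcp1 peaked at hour 43.0 and Ypel3 at hour 43.8. Slc15a2, a peptide transporter, and Vps37a, of the ESCRT-I complex, peaked earlier than these, at hours 41.5 and 40.6, with 0.10 and 0.076 log2. The 2 other Vps37a probe sets peaked outside the window, at hours 24.3 and 26.8.

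The late members moved with the β-actin difference. The r with it was above 0.3 in 45 of the 50, as it was in 39.8% of the probe sets that could enter and in 61 of all 100 members. Of the 50, 49 had their highest array among the 10, and 30 had it at hour 20. Without the 10 arrays 4 of the 50 ranked among the 100, Cep95, Eif4a2 and both probe sets of Abcc5. The median amplitude of the 50 went from 0.13 to 0.089 log2. Ranking also required a peak between hours 32 and 44. Ifi27 dropped out with its peak at hour 20.3, while its amplitude went from 0.12 to 0.11 log2. Without the 10 arrays it was the only late member past the limma 24 h test (adjusted p = 0.00177). The 4 that ranked did not pass (adjusted p from 0.0649 to 0.169). The members were ranked on this 24 h term, so these p-values are a description. The plot of amplitudes with and without these arrays shows most late and early members below the line and the ER folding members near it.

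**Figure D3:**
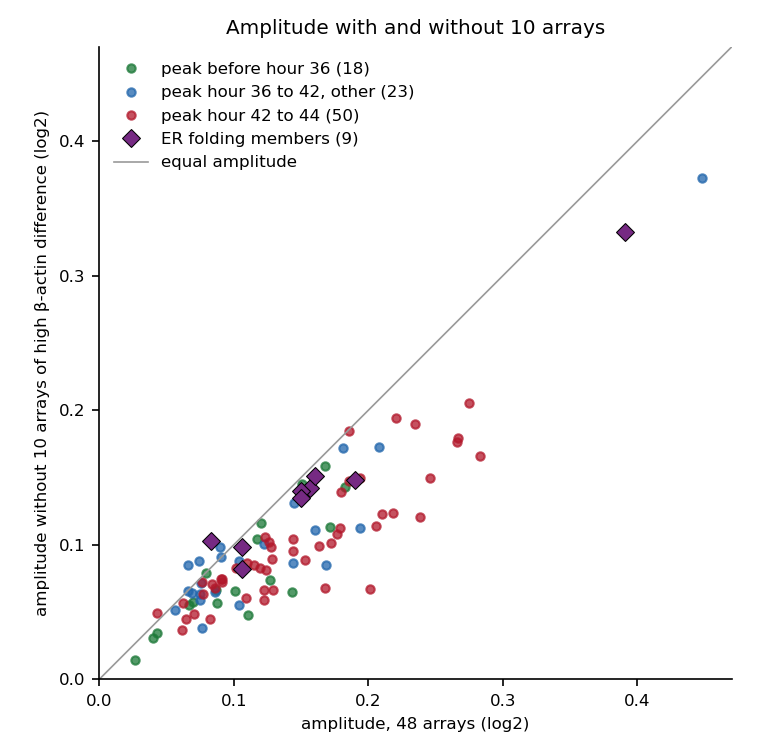
Amplitude (log2) of each member over 48 arrays against its amplitude over the 38 arrays without high β-actin difference, by peak group, with ER folding members as diamonds and the line of equal amplitude. The median of the 50 late members is 0.13 with and 0.089 without the 10 arrays, that of the 18 early members 0.11 and 0.066, and that of the 9 ER folding members 0.15 and 0.14.

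Over all 100 members, the highest array was among the 10 in 75 and the lowest in 23. Hour 20 alone gave the highest value of 39 members, hour 67 of 13, hour 36 of 12 and hour 58 of 8, and hour 51 gave the lowest of 20. The rule applied to the other 38 arrays returned 29 of the 100, 19 of them from the 32 that peaked at hours 36 to 42. With the β-actin difference as a further term of the fit it returned 63, and without hours 52 to 55 it returned 56. The 20 probe sets returned in all 3 cases included Ier5, Crem, Mocs2, Fancg, Slc15a2, Eif4a2, the ER lectin Mlec and 8 of the 9 ER folding genes. The median profiles show the same split hour by hour.

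**Figure D4:**
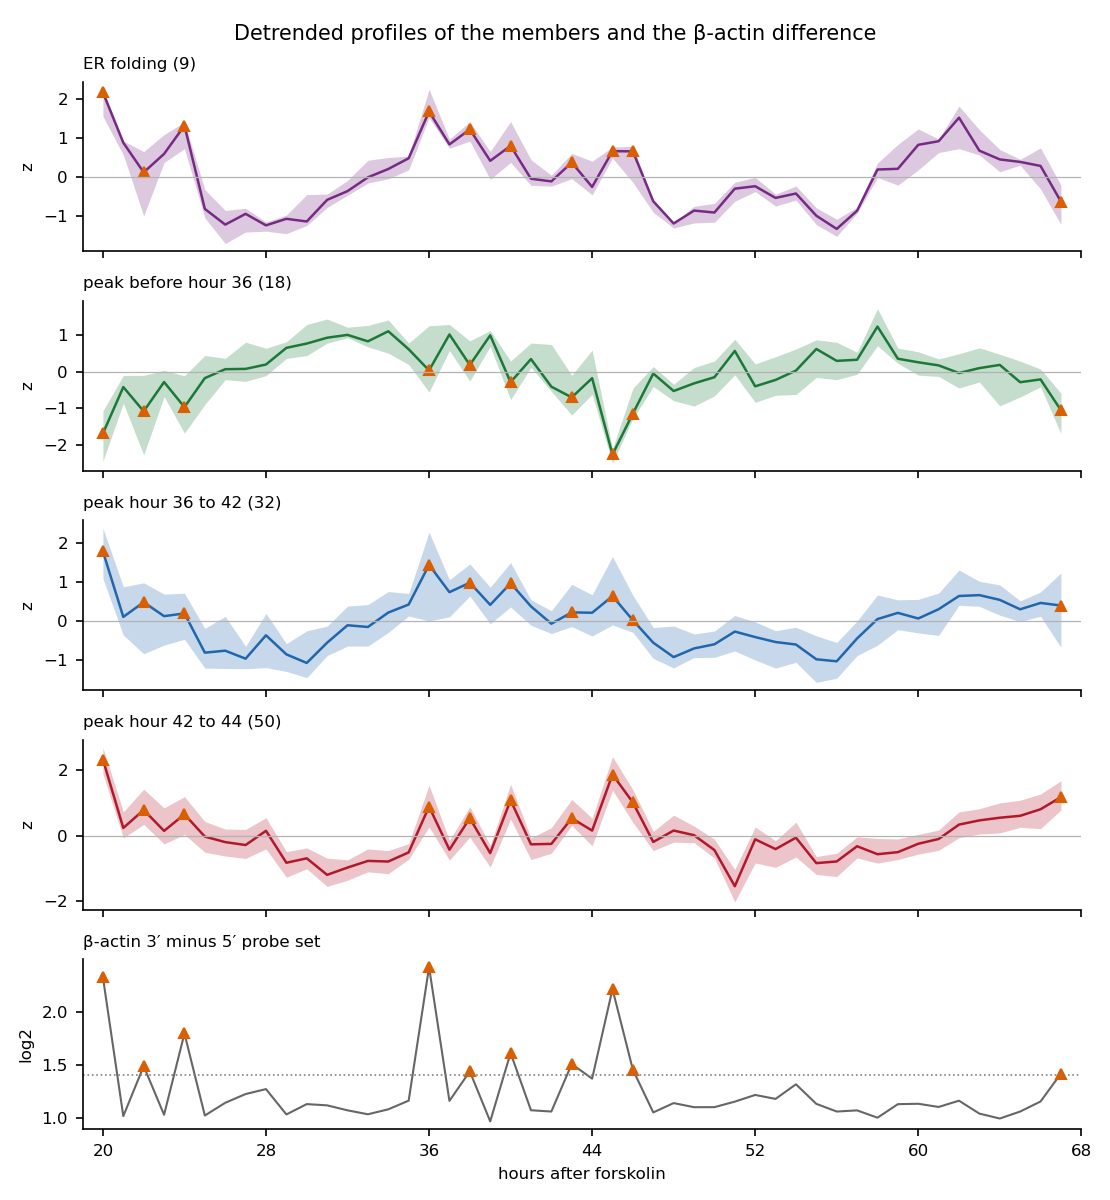
Median detrended z-score (line) and middle quartiles (band) of the 9 ER folding members and of the members by fitted peak, against hours after forskolin, above the β-actin 3′ minus 5′ difference (log2; dotted line at 1.4); triangles mark the 10 arrays of high difference, and the 9 ER folding members are also among the 32. The late members (50) have spikes at hours 20, 36 and 45, the early members (18) a dip at hour 45, and the ER folding members a broad rise to hour 62, where no array of high difference lies.

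The arrays that chose the members cannot also test them, so the rule was applied to the first day alone and read on the second. Of the 100 probe sets that hours 20 to 43 ranked highest, 58 had their second-day peak between hours 32 and 44 of the cycle, beside 52.7% of all 16290 probe sets that could enter. The count was 59 beside 47.3% without the 10 arrays and 79 beside 54.2% without hours 52 to 55. Of these 100, 17 were members. The other probe sets of the member genes, read on all arrays, gave 58 of 120 with a peak in the window (48.3%), beside 48.0% of those that could enter. Over all arrays both shares lay near the background.

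The 24 h term itself passed the limma test (Benjamini-Hochberg, 0.05) with a peak in the window in 47 of 100 members and in 0.131% of all probe sets. The members were ranked on this term, so the count repeats the choice. A 12 h component and an 8 h component, added in turn to the 24 h model, passed the limma test in 0 members each, as in 0.0% of all probe sets. At an unadjusted p under 0.05 they stood at 11 and 13 members, beside 4.68% and 10.3% of all probe sets, and the rule favoured members with little variance besides the cosine. Among the 9 ER folding genes the fitted 12 h amplitude ran from 0.0099 to 0.096 log2 and the 8 h amplitude from 0.031 to 0.18, in each gene below its 24 h amplitude.

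The mean level of each day is a measure on which the rule did not rank, because a 24 h cosine cancels between an hour and the same hour a day later. By limma over 24 such pairs, 20 members were higher on the second day and 32 were lower, beside 11.7% and 12.2% of all probe sets and 23.4% and 22.9% of those that could enter. Without the pairs that held an array of high β-actin difference, 24 were higher and 24 lower, beside 12.7% and 13.6% of all probe sets. Over all 24 pairs the ER folding members had 0 genes past this test, with differences from -0.065 to 0.034 log2 and adjusted p from 0.121 to 0.872, and 1 stood at an unadjusted p under 0.05. Over the same 24 pairs the test passed 19 late members as lower and 6 as higher. The late members were not counted apart without the pairs of high β-actin difference. The ordered plot of day differences shows a few genes far from the rest at both ends.

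**Figure D5:**
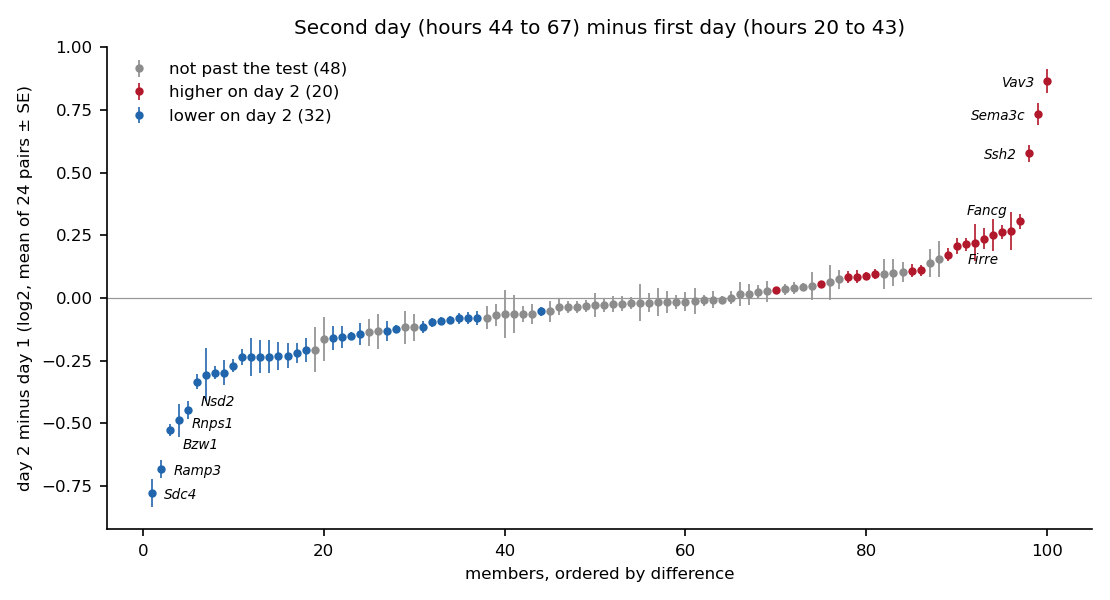
Second-day minus first-day difference of each member (log2, mean of 24 pairs of hours 24 h apart ± SE), in order of size; red and blue mark adjusted p under 0.05 by limma. The range is -0.78 (Sdc4) to 0.86 (Vav3), with 20 members higher, 32 lower and 48 not past the test.

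The 3 largest rises were those of Vav3, Sema3c and Ssh2. Vav3, a signalling protein, rose by 0.86 ± 0.049 log2 (SE; day means 11.92 and 12.79, adjusted p = 8.16e-13 by limma). Sema3c, a secreted semaphorin, rose by 0.73 ± 0.044 (adjusted p = 3e-12), and Ssh2, a phosphatase that activates cofilin, by 0.58 ± 0.035 (adjusted p = 2.52e-12). Fancg rose by 0.31 ± 0.030 and Firre by 0.27 ± 0.077. Atp6v1b2 also rose, by 0.26, as 32 of 49 lysosome and autophagy genes did.

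The 3 largest falls were in members peaking before hour 36. Sdc4, the heparan sulfate proteoglycan syndecan-4, went from 14.95 to 14.17, a difference of -0.78 ± 0.056 (adjusted p = 6.56e-11). Ramp3, a partner of calcitonin-family receptors, went from 16.31 to 15.63 (-0.68 ± 0.036, adjusted p = 3.13e-13), and Bzw1, a regulator of translation start sites, from 16.57 to 16.04 (-0.53 ± 0.025, adjusted p = 3.21e-14). Rnps1, of the exon junction complex, fell by 0.49 and Nsd2, a histone H3 methyltransferase, by 0.45. Taken from means of 6 h blocks, in place of single hours, 12 members were higher and 11 lower, beside 3.6% and 3.83% of all probe sets, and the limma test no longer passed Rnps1 (adjusted p = 0.0581) or Firre (adjusted p = 0.116). For Sdc4, Ramp3 and Bzw1 the change between days was larger than the fitted peak-to-trough span of 2 amplitudes, whose amplitudes were 0.17, 0.11 and 0.087 log2.

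A change of the cosine between the days passed limma's interaction test in 2 members, Tial1, an RNA-binding protein of stress granules (adjusted p = 0.0112), and Neat1, the RNA scaffold of paraspeckles (adjusted p = 0.0335), beside 1.82% of all probe sets and 4.05% of those that could enter. The rule favours members that are alike on both days. The first-day and second-day amplitudes were 0.064 and 0.16 log2 for Tial1 and 0.026 and 0.097 for Neat1, with peaks at hours 42 to 44 on both days except for Neat1 on the first (hour 41.6). Read with all arrays, the second-day amplitude was the lower in 63 of the members, as it was in 62 of the 100 best-fitting probe sets that peaked at hours 20 to 32. For Tial1, 3 of 4 other probe sets of mean log2 10 or more peaked outside the window.

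In position, the members were spread over all chromosomes but 14, with 6 of 95 genes on the X (6.32%, beside 3.14% of the genes that could enter). The median span of the member genes was 18.2 kb, beside 28.3 kb. These shares were given no test.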

How the data were processed

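RNA of NIH3T3 cells was read on 48 arrays, 1 per hour. The values the authors deposited were linear probe set intensities, with background correction and between-array normalization already done. The study's methods name GCRMA, and the submitters' processing notes name MAS5 only. The sources used here give neither versions nor the scale of the values, so results compare levels within a probe set, and levels between probe sets were used only for the mean limit, the brightest probe set and the cell type markers. Each sample's hour came from its title. Values were taken to log2 with no added constant and no filter besides that of the rule. Names came from the platform annotation, updated through gene identifiers (34945 probe sets with 1 symbol, 932 with several, 9160 with none). Precision is limited by the number of arrays.

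Amplitude, peak and share came from least squares in Python 3.11.15 (numpy 2.4.6, pandas 2.3.3), with standard errors of the fit, and figures from matplotlib 3.10.9. The 24 h, 12 h and 8 h terms, the interaction with the day and the 24 paired day differences were tested with limma 3.58.1 in R 4.3.3 over all 45037 probe sets, adjusted by Benjamini-Hochberg at 0.05. The fits were tested on simulated data whose noise was drawn independently for each probe set and hour. Such data hold no disturbance of a whole array and no dependence between neighbouring hours. They therefore do not check the p-values for either. The interaction and harmonic fits held a term for hours 52 to 55. Genes in lists were read by their brightest probe set.

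The members and lists were chosen with earlier results of these data known. Named genes were the 20 of highest share, up to 4 further members per list, the 5 largest rises and 5 largest falls between days past the test, and up to 5 with a changed cosine. Genes named outside this rule were chosen after their values were seen. Alternatives were quantile normalization, array centring, linear intensities, other mean limits, no linear term, the β-actin difference as a covariate, and groups of arrays, single arrays or hour pairs left out.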

Additional observations from a re-analysis of the deposited data

Results flagged for a closer look

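In 2 members the 24 h cosine differed between the first day and the second by the interaction test of limma over all probe sets. They were Tial1, with an adjusted p of 0.0112, and Neat1, with an adjusted p of 0.0335. Both had the larger amplitude on the second day, by 0.16 against 0.064 log2 for Tial1 and by 0.097 against 0.026 for Neat1. With the 10 arrays in which β-actin was unequal left out, the test passed 10 members, beside 2.95% of all probe sets. The share of those that could enter is not given for this setting. With all arrays it was 4.05%, beside 1.82% of all probe sets. The 10 members are not named here, so their count does not bear on Tial1 and Neat1 in particular.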

How the results depend on the processing

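Membership depended on the processing. Of the 100 members, 29 were chosen again when the 10 arrays with unequal β-actin ends were left out, 63 with that difference as a covariate, 56 without hours 52 to 55, 58 without hours 20 to 25 and 51 with no linear term. With 1 array left out it was 66 to 97, and the lowest count was without hour 36. The median amplitude was 0.0876 log2 without the 10 arrays. All other probe sets of the member genes, whatever their level, gave 100 of 174 with a peak in the window. By brightest probe set, the count of listed ER folding genes past the 24 h test with a peak in the window was 4 without the 10 arrays and 4 with the covariate. From means of 6 h blocks, 12 members were higher and 11 lower on the second day, beside 3.6% and 3.83% of all probe sets. From single hours, the counts with 1 pair left out were 19 to 22 and 30 to 34. Without the pairs that held an array of high β-actin difference they were 24 and 24. The change of the cosine passed the test in 20 members with no term for hours 52 to 55, beside 49.0% of all probe sets, and in 10 without the 10 arrays, beside 2.95%. Of the probe sets chosen on the first day, 81 peaked in the window on the second with no linear term within a day, an alternative chosen after seeing the data, beside 46.3% of those that could enter. Every day difference of a named gene kept its sign in the alternatives run. The cause of these differences was not tested.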
